A study of Mus musculus with 6 samples.

Results

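Interleukins are secreted proteins with which blood and tissue cells signal to each other, and their receptors sit on the surface of the cells that respond. Here 68 genes of this kind were followed in mouse haematopoietic progenitors, out of 18192 genes measured. Members were the genes whose annotated symbol begins with Il and a digit. Il3ra, Il4, Il5ra, Il6, Il6st and Il11ra1, 6 symbols in all, were not taken. Of the 68, 30 encode ligands, 33 receptors or their accessory chains and 5 other products. The last 5 were the antagonist genes Il1rn and Il1f5, the binding protein gene Il18bp, the enzyme gene Il4i1 and the non-coding RNA Il1bos.

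Receptors of the interleukin-1 family pass their signal through the adaptor MyD88 and IRAK kinases, whereas most other interleukin receptors use Janus kinases and STAT factors. The interleukin-1 system carries brakes of several kinds: a receptor antagonist that occupies the receptor, decoy receptors that bind the ligand without signalling, and a soluble binding protein for interleukin-18. In marrow, interleukin-7 drives early lymphoid growth, and interleukin-3 supports myeloid progenitors and mast cells.

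The samples address what forced EVI1, the DNA-binding zinc finger product of Mecom, does to gene expression in lineage-negative (Lin-) progenitors of C57BL/6J mice that carry the doxycycline-dependent transactivator at Rosa26. EGFP-positive cells carried the lentiviral vector pRRL.TET.EVI1.IRES.EGFP, which makes EVI1 and EGFP from a single transcript when doxycycline is present. EGFP-negative cells are called untransduced in their labels, while the design text describes a sort of negative or low cells out of the transduced culture, and the description of the EGFP-positive samples also reads untransduced. The culture medium held 20 ng/ml of interleukin-3 and 50 ng/ml each of interleukin-11, stem cell factor and the ligand of Flt3. By the design text, all cells received doxycycline (1 µg/ml) for 20 hours before sorting. No vector without EVI1 was among these samples, so EVI1, EGFP and transduction itself cannot be told apart. There were 3 arrays of each group, and the labels do not say how old the mice were, whether they were pooled or whether replicates were separate cultures. The p-values therefore reflect the spread among these arrays alone, which may be technical. Each array read a whole sorted fraction, in which fewer cells of a type and less RNA per cell cannot be told apart.

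Values are log2 expression per probe set, and a difference of 1 is a doubling. Array medians were 5.11 to 5.14, and Pearson's r across probe sets was at least 0.989 within groups and 0.968 to 0.969 between them. The brightest Mecom probe set read 7.97 ± 0.20 in EGFP-positive and 8.26 ± 0.09 in EGFP-negative arrays (SD, n = 3) and did not pass the test (limma, adjusted p = 0.129). The part of Mecom carried by the vector is not given, so this does not check the labels. The log2 signal of 3' minus 5' probe sets of Actb was 1.00 ± 0.03 in EGFP-positive and 0.80 ± 0.05 in EGFP-negative arrays, and that of Gapdh was 1.06 ± 0.04 in EGFP-positive and 0.82 ± 0.02 in EGFP-negative arrays. This measure of RNA integrity thus differed by group, and its part in the results below was not tested. The blood identity of the cells was visible in the common leukocyte gene Ptprc, at 10.84 in EGFP-positive and 10.74 in EGFP-negative arrays, and in Myb, a regulator of progenitors, at 12.07 in EGFP-positive and 12.88 in EGFP-negative arrays.

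The 27 probe sets for bacterial poly-A transcripts, which have no counterpart in mouse cells, read 1.13 to 3.61. The highest, 3.61, served as a limit of background. A member was above it where its mean exceeded 3.61 in at least 1 group. By this rule 42 of 68 members exceeded the bacterial controls: 11 of 30 ligands, 28 of 33 receptors and 3 of the 5 others. The remaining 26 had means between 1.21 and 3.54 in both groups.

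At an adjusted p under 0.05, 33 of 68 members passed, 10 higher and 23 lower in EGFP-positive cells (limma, Benjamini-Hochberg over all genes). Over all 18192 genes, 33.2% passed, 16.0% higher and 17.2% lower. Counted over all 30, ligands passed about as often as any gene, 10 of 30, with 4 higher and 6 lower. Among receptors 20 of 33 passed, 4 higher and 16 lower. The median change was 0.00 for ligands and -0.43 for receptors, beside 0.02 for all genes. Of the 30 ligands, 19 lay under 3.61 in both groups, which weighs on their share and median. Among members above 3.61 in at least 1 group, 9 of 11 ligands and 20 of 28 receptors passed. With only the genes above 3.61 tested, 6451 of 13428 passed. Both counts take in genes that exceed 3.61 in 1 group alone, which favours a difference. Among members these were Il10, Il12a and Il22ra2, which passed, and Il7 and Il17rb, which did not. The arrays of the groups did not overlap in 40 of the 68 members, beside 48.2% of all genes.

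**Figure D1:**
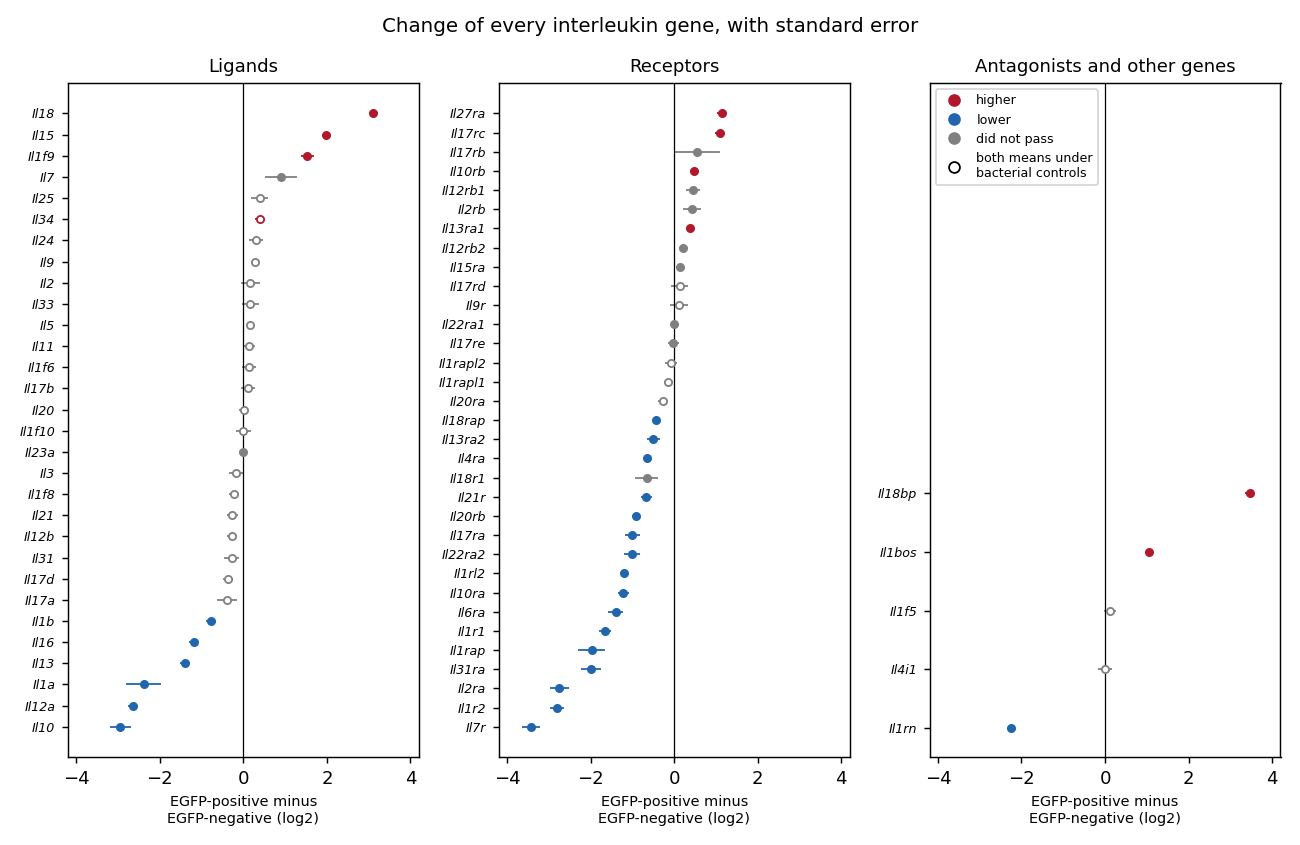
Log2 difference, EGFP-positive minus EGFP-negative, for each of the 68 genes, with the standard error as a bar, in panels for ligands, receptors and other genes. Filled points had a mean above 3.61 in at least 1 group. Receptors lie mostly left of 0, down to -3.43 for Il7r, while ligands reach both sides, from -2.95 for Il10 to 3.11 for Il18.

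Promoters are shown for 4 members, since many moved at once and EVI1 is a DNA-binding factor. Il18bp and Il7r had the largest rise and fall among members with a promoter entry. Il1f9 and Il6ra had the largest rise and fall among those whose promoter held a searched motif. Each run is 300 bases of RefSeq sequence (GRCm38.p6), most of it upstream of the annotated start, written 5′ to 3′ on the strand of the gene. Capitals mark AGATAA or its reverse complement TTATCT, the GATA-type core to which the N-terminal zinc fingers of EVI1 are known to bind.
Il18bp (chr7:102018183-102018482, minus strand): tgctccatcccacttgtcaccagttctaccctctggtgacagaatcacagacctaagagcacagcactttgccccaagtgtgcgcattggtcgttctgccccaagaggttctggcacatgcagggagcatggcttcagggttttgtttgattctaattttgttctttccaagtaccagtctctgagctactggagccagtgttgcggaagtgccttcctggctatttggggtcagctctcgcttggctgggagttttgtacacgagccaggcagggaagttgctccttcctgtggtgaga
Il7r (chr15:9529827-9530126, minus strand): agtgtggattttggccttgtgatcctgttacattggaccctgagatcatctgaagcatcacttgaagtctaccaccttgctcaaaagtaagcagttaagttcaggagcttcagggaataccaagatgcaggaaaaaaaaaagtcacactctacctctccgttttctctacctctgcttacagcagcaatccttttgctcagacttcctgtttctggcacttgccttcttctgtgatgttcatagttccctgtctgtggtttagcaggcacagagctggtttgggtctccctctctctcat
Il1f9 (chr2:24186226-24186525, plus strand): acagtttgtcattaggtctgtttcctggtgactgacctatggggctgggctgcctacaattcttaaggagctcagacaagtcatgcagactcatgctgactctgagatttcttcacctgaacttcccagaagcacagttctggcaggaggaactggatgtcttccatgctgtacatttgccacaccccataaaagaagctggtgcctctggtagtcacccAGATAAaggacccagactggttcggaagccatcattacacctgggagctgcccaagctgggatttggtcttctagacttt
Il6ra (chr3:89913147-89913446, minus strand): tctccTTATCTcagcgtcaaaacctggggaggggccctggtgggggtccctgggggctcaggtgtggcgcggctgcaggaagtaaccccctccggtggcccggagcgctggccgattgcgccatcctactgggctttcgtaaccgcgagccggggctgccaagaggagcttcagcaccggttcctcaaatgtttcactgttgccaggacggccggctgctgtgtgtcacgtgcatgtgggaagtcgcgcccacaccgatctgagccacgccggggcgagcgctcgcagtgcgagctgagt

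Of 52 members with a promoter entry, 8 held the GATA-type motif (15.4%), against 11.4% of 27025 promoters in the table. They were 1 of 6 members that passed as higher, Il1f9, and 4 of 19 that passed as lower, Il6ra, Il20rb, Il13 and Il13ra2, besides Il22ra1, Il9r and Il3. A longer motif, GAAGATGAG, bound by the C-terminal fingers, was searched on both strands too. It occurred in 0 of the 52 and in 0.37% of all promoters. A match is a run of letters, and binding was not measured.

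Among ligands above the limit, 3 rose: Il18, Il15 and Il1f9. Il18 encodes an interleukin-1 family cytokine that is stored as a precursor and cut by caspase-1. It read 8.18, 8.18 and 8.21 in EGFP-positive arrays, against 4.89, 5.17 and 5.18 in EGFP-negative arrays, a rise of 3.11 (SE 0.10, 8.64-fold, adjusted p = 2.24e-05). The 3 EGFP-positive arrays lay close together and well above every EGFP-negative array. Il15, which sustains natural killer and memory T cells, read 7.92, 8.21 and 7.84 in EGFP-positive arrays, against 5.96, 6.02 and 6.01 in EGFP-negative arrays. Its rise was 1.99 (SE 0.12, 3.97-fold, adjusted p = 9.9e-05). Il1f9, also known as Il36g, encodes an agonist of the interleukin-36 receptor. It read 8.20, 8.04 and 7.83 in EGFP-positive arrays, against 6.69, 6.22 and 6.57 in EGFP-negative arrays (1.53, SE 0.16, 2.88-fold, adjusted p = 0.000755).

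Erythroid markers rose as well. Of 5 measured, 4 rose, and Tfrc (0.10) did not pass, beside 16.0% of all genes that passed as higher. With only these groups compared, any gene that rose goes with Il18, Il15 and Il1f9, and with Il18bp and Il27ra given further on. The globin gene Hbb-y averaged 9.45 in EGFP-positive arrays, against 2.01 in EGFP-negative arrays, and Slc4a1, an anion exchanger of red cells, averaged 9.32 in EGFP-positive and 3.06 in EGFP-negative arrays, both EGFP-negative means being under the limit. Klf1 (1.33) and Epor (1.71) rose too. The summed linear signal of the list was 7097 to 7576 in EGFP-positive and 5279 to 5643 in EGFP-negative arrays. Most of that sum was Tfrc, at 12.48 in EGFP-positive and 12.38 in EGFP-negative arrays, so it says little about the other markers. The sum of 4 megakaryocyte markers was 2968 to 3005 in EGFP-positive and 1303 to 1361 in EGFP-negative arrays. The part of these cells in the rises was not tested.

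Il34, a ligand of the CSF-1 receptor, passed as higher with an adjusted p of 0.0312, but all 6 arrays lay between 2.22 and 2.84, under the bacterial limit, so no fold is given. Its call was lost without each of EGFP-positive replicates 1 and 2 and EGFP-negative replicates 1, 2 and 3, with an adjusted p of 0.105 without EGFP-negative replicate 2.

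The other 6 ligands that passed fell. Il10, an anti-inflammatory cytokine, read 2.55, 2.41 and 3.24 in EGFP-positive arrays, against 5.62, 5.96 and 5.46 in EGFP-negative arrays. All 3 EGFP-positive arrays were under the bacterial limit, and Il10 was at least 4.19-fold lower (adjusted p = 0.000339). Il12a, the p35 subunit of interleukin-12, read 3.45, 3.46 and 3.27 in EGFP-positive arrays, against 6.21, 5.99 and 5.91 in EGFP-negative arrays. It too was under the limit on each EGFP-positive array, at least 5.36-fold lower (adjusted p = 3.68e-05). Its partner Il12b, the p40 subunit, lay under the limit in both groups.

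Il13, a type 2 cytokine made by mast cells, basophils and lymphoid cells, read 5.31, 5.02 and 5.06 in EGFP-positive arrays, against 6.60, 6.57 and 6.39 in EGFP-negative arrays. Its change was -1.39 (SE 0.11, adjusted p = 0.000304). Il16, whose precursor is cut to a chemoattractant for CD4-bearing cells, read 7.98, 7.66 and 7.75 in EGFP-positive arrays, against 8.93, 9.13 and 8.87 in EGFP-negative arrays (-1.18, SE 0.12, adjusted p = 0.000721). Of the 3 other Il16 probe sets, 1 passed as lower too (-1.53, adjusted p = 0.00554 over probe sets), and the other two (-0.68 and 0.10) did not pass.

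Il1a and Il1b encode the founding cytokines of the interleukin-1 family. Il1a read 3.37, 3.77 and 5.06 in EGFP-positive arrays, against 6.27, 6.55 and 6.52 in EGFP-negative arrays. EGFP-positive replicate 1 was under the bacterial limit, and the gene was at least 4.94-fold lower (adjusted p = 0.00633). Il1b read 8.50, 8.84 and 8.84 in EGFP-positive arrays, against 9.49, 9.46 and 9.57 in EGFP-negative arrays (-0.78, SE 0.12, adjusted p = 0.0035).

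The remaining ligands above the limit were Il23a and Il7, and neither passed. Il23a, the p19 subunit of interleukin-23, was 4.30 ± 0.08 in EGFP-positive and 4.30 ± 0.07 in EGFP-negative arrays (difference 0.00, SE 0.09). Il7 read 4.69, 3.20 and 3.76 in EGFP-positive arrays, against 2.85, 3.35 and 2.76 in EGFP-negative arrays (0.90, SE 0.39, adjusted p = 0.129), and the groups overlapped. Under the limit in both groups were, besides Il34, the T cell cytokine genes Il2, Il5, Il9, Il17a, Il21 and Il31, and also Il11, Il12b, Il17b, Il17d, Il20, Il24, Il25, Il33, Il1f6, Il1f8, Il1f10 and Il3. This is by their means, and Il24 exceeded it on 2 EGFP-positive arrays. Il3 read 1.75 ± 0.14 in EGFP-positive and 1.93 ± 0.30 in EGFP-negative arrays, and Il11 read 2.99 ± 0.21 in EGFP-positive and 2.85 ± 0.20 in EGFP-negative arrays. These are the genes of the interleukins that were supplied in the medium.

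**Figure D2:**
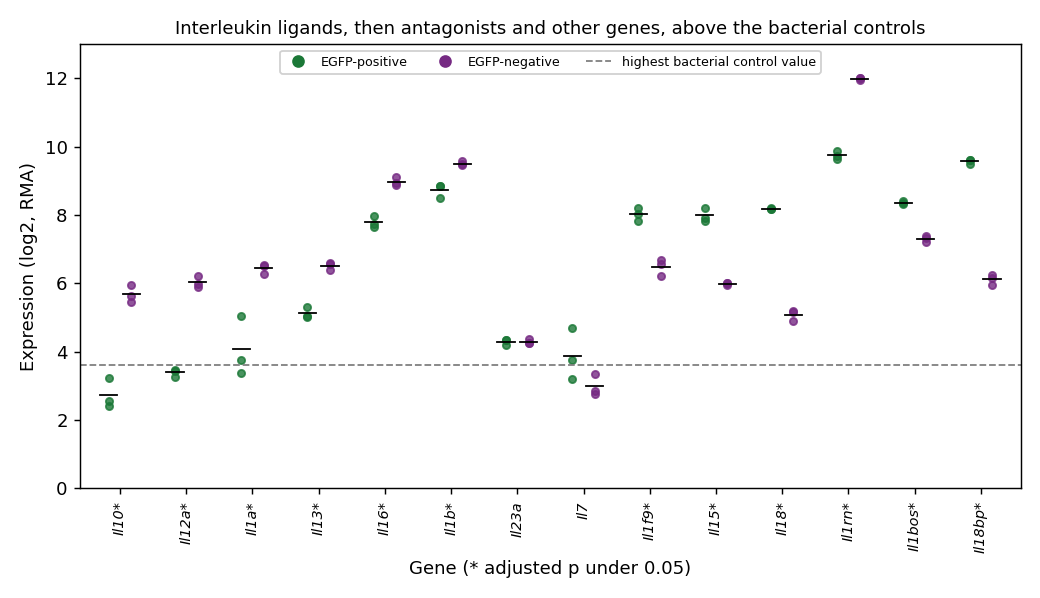
Log2 expression on each array for the 11 ligands and then the 3 other genes above the bacterial controls, each group ordered by change, EGFP-positive left (green) and EGFP-negative right (purple), with the mean as a black line. The dashed line is the highest bacterial control value, 3.61. Il10 and Il12a lie under it in EGFP-positive arrays only, and Il18 and Il18bp stand clear of it in both groups.

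The antagonists moved in opposite directions. Il18bp, the soluble protein that captures interleukin-18, had the largest rise of all members. It read 9.50, 9.62 and 9.60 in EGFP-positive arrays, against 5.95, 6.16 and 6.24 in EGFP-negative arrays (3.46, SE 0.10, 11.0-fold, adjusted p = 1.87e-05). Il1rn, the interleukin-1 receptor antagonist, read 9.88, 9.64 and 9.72 in EGFP-positive arrays, against 11.97, 12.00 and 12.00 in EGFP-negative arrays (-2.24, SE 0.09, 4.73-fold lower, adjusted p = 3.57e-05). Its 2 other probe sets fell by 2.63 and 2.80. Il1bos, a non-coding RNA named for the opposite strand of Il1b, read 8.40, 8.36 and 8.34 in EGFP-positive arrays, against 7.39, 7.33 and 7.22 in EGFP-negative arrays (1.05, SE 0.08, adjusted p = 0.000272). Il1b itself fell, and the annotated spans of the pair overlap. Il1f5, the interleukin-36 receptor antagonist, lay under the limit in both groups, and so did the probe set annotated to Il4i1 alone. A probe set shared by Il4i1 and Il4i1b averaged 10.29 in EGFP-positive and 9.44 in EGFP-negative arrays, so Il4i1 itself is not placed by these data.

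Of the receptors, Il7r fell most. It encodes the alpha chain shared by the receptors for interleukin-7 and TSLP and marks early lymphoid progenitors. It read 5.34, 5.88 and 6.21 in EGFP-positive arrays, against 9.30, 9.21 and 9.20 in EGFP-negative arrays (-3.43, SE 0.22, 10.8-fold lower, adjusted p = 0.00012). A further probe set gave -3.29. Il2ra, the alpha chain of the interleukin-2 receptor (CD25), read 5.18, 5.72 and 4.85 in EGFP-positive arrays, against 7.91, 8.07 and 8.02 in EGFP-negative arrays (-2.75, SE 0.22, 6.72-fold lower, adjusted p = 0.000278). Its second probe set fell by 1.14, and the mean of both was -1.94. Il21r fell by 0.67 (SE 0.14, adjusted p = 0.011). Il2rb, the beta chain used by interleukins 2 and 15, was 4.63 ± 0.38 in EGFP-positive and 4.2 ± 0.25 in EGFP-negative arrays and did not pass (adjusted p = 0.2). Il15ra, which presents interleukin-15, did not pass either (7.18 ± 0.09 in EGFP-positive and 7.05 ± 0.07 in EGFP-negative arrays, difference 0.14, SE 0.09), although its ligand gene rose.

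Lymphoid markers went both ways, beside 33.2% of all genes that passed. Of 10 measured T, NK and innate lymphoid markers, 4 fell, Nkg7, Gzma, Cd3e and Cd2, and 2 rose, Gata3 and Rora. Their summed linear signal was 4462 to 4803 in EGFP-positive and 6970 to 7344 in EGFP-negative arrays. Thy1, at 11.66 in EGFP-positive and 11.83 in EGFP-negative arrays, did not pass and made up most of the EGFP-positive sum. Cd3g and Ncr1 were under the bacterial limit in both groups. Of 9 measured B and early lymphoid markers, 2 fell, Dntt and Flt3, and 1 rose, Cd79b, with a median change of -0.01 over the list. Their sum was 450 to 517 in EGFP-positive and 794 to 950 in EGFP-negative arrays, and Ebf1, Pax5 and Rag1 were under the limit. The part of these markers in the fall of Il7r and Il2ra was not tested.

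The receptors of interleukin-1 fell together with their ligands. Il1r2 encodes a decoy receptor that binds interleukin-1 without signalling. It read 5.95, 6.20 and 6.57 in EGFP-positive arrays, against 9.09, 9.01 and 9.04 in EGFP-negative arrays (-2.81, SE 0.16, 6.99-fold lower, adjusted p = 9.6e-05). Il1r1, the signalling receptor, read 8.55, 8.89 and 8.93 in EGFP-positive arrays, against 10.36, 10.63 and 10.33 in EGFP-negative arrays (-1.65, SE 0.14, adjusted p = 0.000373). Il1rap, the accessory chain without which the receptor does not signal, read 4.24, 3.70 and 4.97 in EGFP-positive arrays, against 6.27, 6.10 and 6.48 in EGFP-negative arrays (-1.98, SE 0.31, adjusted p = 0.0042). With the mean of all their probe sets, most of the additional ones dim, the changes were smaller for Il1r1 (-0.93) and Il1rap (-0.83) and still passed.

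Il1rl2, the receptor for interleukin-36, read 9.09, 9.10 and 9.13 in EGFP-positive arrays, against 10.36, 10.35 and 10.25 in EGFP-negative arrays (-1.21, SE 0.08, adjusted p = 0.000124). Receptor and ligand thus went opposite ways, since its agonist gene Il1f9 rose. The probe set of Il1rl2 is of a type that can bind related sequences, and the other probe set fell by 0.69 (adjusted p = 0.0268 over probe sets). Il18rap, the accessory chain of the interleukin-18 receptor, was 8.98 ± 0.04 in EGFP-positive and 9.40 ± 0.08 in EGFP-negative arrays (-0.43, SE 0.08, adjusted p = 0.0093). Its partner Il18r1 read 5.94, 7.02 and 6.72 in EGFP-positive arrays, against 7.13, 7.17 and 7.37 in EGFP-negative arrays, and did not pass (-0.66, SE 0.27, adjusted p = 0.117). It passed without EGFP-positive replicate 2 (-0.89, adjusted p = 0.047) but not when any other array was left out, as with EGFP-positive replicate 1 (-0.35, adjusted p = 0.125) and EGFP-negative replicate 3 (-0.59, adjusted p = 0.269). Il1rapl1 and Il1rapl2, relatives of the accessory chain, lay under the limit in both groups.

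These receptor genes are neighbours, and this look at gene positions was added after the values were seen. Il1r2, Il1r1, Il1rl2, Il18r1 and Il18rap lie within 467016 bases of chromosome 1 in GRCm38.p6, from 40084692 to 40551707. All 5 had lower means in EGFP-positive arrays, 4 of them past the threshold. In the order in which they lie, the differences were -2.81, -1.65, -1.21, -0.66 and -0.43. This order by size did not hold under every setting: with the mean of all probe sets Il1r1 was -0.93 and Il1rl2 -0.95, and without EGFP-positive replicate 1 Il18r1 was -0.35 and Il18rap -0.41. Il1rl1, inside the same stretch, was not analysed here. The measured genes on either side did not pass: Map4k4 (-0.03) before it, and Slc9a4 (-0.01), Slc9a2 (-0.64, adjusted p = 0.0582) and Mfsd9 (0.17) after it, with Slc9a4 under the bacterial limit. Ligand genes of the family lie in 2 places on chromosome 2. Between 24153172 and 24351491, Il1f9 rose and the antagonist gene Il1rn fell, while Il1f8, Il1f6, Il1f5 and Il1f10 were under the limit. Between 129299609 and 129371164, Il1a and Il1b both fell, and so did the flanking gene Ckap2l (-2.08, adjusted p = 4.74e-05).

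**Figure D3:**
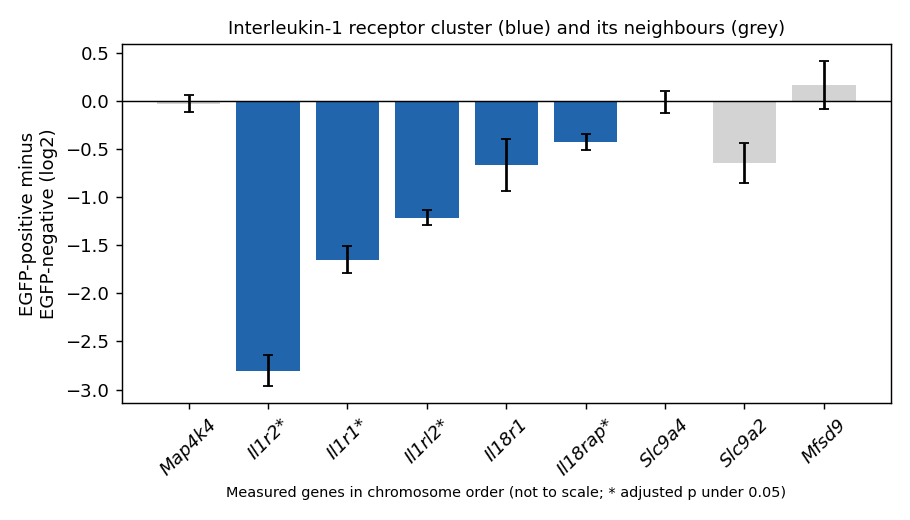
Log2 difference, EGFP-positive minus EGFP-negative, for the measured genes of the interleukin-1 receptor cluster (blue) and the genes on either side (grey), in chromosome order but not to scale, with standard errors. The 5 cluster genes run from -2.81 for Il1r2 to -0.43 for Il18rap.

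Markers of neutrophils and, in part, of monocytes fell as well. Of 9 neutrophil markers, 8 fell, among them Mpo and Camp, and 1 rose, Csf3r. Their summed linear signal was 13087 to 13681 in EGFP-positive and 34471 to 36907 in EGFP-negative arrays. Most of the EGFP-positive sum was S100a8, which fell by only 0.30, from 13.65 in EGFP-negative to 13.36 in EGFP-positive arrays. Of 9 measured monocyte and macrophage markers, 5 fell and 2 rose, with sums of 7929 to 8252 in EGFP-positive and 9337 to 9477 in EGFP-negative arrays. None of either list was under the limit in both groups, and their part in the fall of Il1r2, Il1r1 and Il1rn was not tested. By comparison, 16.0% of all genes passed as higher and 17.2% as lower.

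Among the receptors for type 2 and related cytokines, the shared chain fell and a partner chain rose. Il4ra, the chain through which interleukins 4 and 13 signal, read 8.45, 8.72 and 8.61 in EGFP-positive arrays, against 9.29, 9.21 and 9.20 in EGFP-negative arrays (-0.64, SE 0.10, adjusted p = 0.00349). Il13ra1, which joins it to bind interleukin-13, was 9.28 ± 0.10 in EGFP-positive and 8.90 ± 0.11 in EGFP-negative arrays (0.38, SE 0.10, adjusted p = 0.0286). Its call was lost without each of EGFP-positive replicates 1 and 3 and EGFP-negative replicates 1 and 2, with an adjusted p of up to 0.101. Il13ra2, a decoy for interleukin-13, read 3.40, 3.80 and 3.74 in EGFP-positive arrays, against 4.07, 4.0 and 4.36 in EGFP-negative arrays, at least 1.35-fold lower (adjusted p = 0.0468). That call was lost without any 1 of the 6 arrays, with an adjusted p of up to 0.13. Il31ra, the receptor for interleukin-31, fell to 5.70, 4.77 and 5.03 in EGFP-positive arrays, against 7.25, 7.06 and 7.17 in EGFP-negative arrays (-1.99, SE 0.24, adjusted p = 0.00132). Its partner chain Osmr lay under the limit in both groups. With the mean of its 2 probe sets, Il31ra was -1.31.

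Mast cell and basophil markers fell beside Il13, Il4ra and Il31ra. Of 11 measured, 9 fell and 0 rose, among them Hdc and Cpa3, and Gata2 (-0.15) and Tpsb2 (-0.59) did not pass. Their sum was 10017 to 10718 in EGFP-positive and 21118 to 21219 in EGFP-negative arrays. Gata2, at 12.73 in EGFP-positive and 12.89 in EGFP-negative arrays, made up most of the EGFP-positive sum. Of 4 measured eosinophil markers, 3 fell, and their sum was 194 to 316 in EGFP-positive and 1471 to 1661 in EGFP-negative arrays. Ccr3 was under the limit in both groups. The part of these cells in the falls was not tested. By comparison, 17.2% of all genes passed as lower.

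By their brightest probe sets, the interleukin-10 and interleukin-17 receptors divided by chain. Il10ra, the chain specific to interleukin-10, read 5.78, 5.47 and 5.36 in EGFP-positive arrays, against 6.78, 6.72 and 6.76 in EGFP-negative arrays (-1.22, SE 0.12, adjusted p = 0.00072). Il10rb, the chain shared with interleukin-22 and others, was 9.04 ± 0.08 in EGFP-positive and 8.55 ± 0.12 in EGFP-negative arrays (0.48, SE 0.10, adjusted p = 0.0114). The other Il10rb probe set leaned the opposite way, at 4.74 in EGFP-positive and 4.98 in EGFP-negative arrays. Its difference was -0.24 and did not pass (adjusted p = 0.338 over probe sets). Over the mean of all their probe sets Il10ra was -0.52 and still passed, and Il10rb was 0.12 and did not (adjusted p = 0.462). Il17ra, used by most of the family, read 7.75, 7.22 and 7.06 in EGFP-positive arrays, against 8.33, 8.43 and 8.28 in EGFP-negative arrays (-1.0, SE 0.19, adjusted p = 0.00791). Its second probe set was -0.58 and did not pass (adjusted p = 0.126 over probe sets), while the mean of both was -0.79 and passed. Il17rc, which pairs with Il17ra for interleukin-17A, read 5.64, 5.89 and 5.58 in EGFP-positive arrays, against 4.63, 4.55 and 4.66 in EGFP-negative arrays (1.09, SE 0.11, adjusted p = 0.000592). Its other probe set read 1.59 in EGFP-positive and 1.55 in EGFP-negative arrays, and averaging both gave 0.57, which still passed.

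Il17re was 4.24 ± 0.16 in EGFP-positive and 4.26 ± 0.15 in EGFP-negative arrays and did not pass. Il17rb was above the limit by its EGFP-positive mean through replicate 1 alone, with 4.94, 3.38 and 2.88, against 3.73, 2.90 and 2.91 in EGFP-negative arrays, and did not pass (adjusted p = 0.501). Il17rd, Il9r and Il20ra lay under the limit in both groups.

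Among the other class II receptor chains, Il20rb, shared by interleukins 19, 20 and 24, read 6.46, 6.44 and 6.61 in EGFP-positive arrays, against 7.50, 7.47 and 7.30 in EGFP-negative arrays (-0.92, SE 0.10, adjusted p = 0.000805). Il22ra2, a soluble trap for interleukin-22, read 3.58, 3.23 and 3.96 in EGFP-positive arrays, against 4.56, 4.48 and 4.73 in EGFP-negative arrays, and was at least 1.82-fold lower (adjusted p = 0.00927). Il22ra1, the signalling chain of that receptor, was 4.01 ± 0.11 in EGFP-positive and 4.01 ± 0.02 in EGFP-negative arrays.

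The receptors of the interleukin-6 and interleukin-12 families also differed among themselves. Il6ra, which binds interleukin-6 before the shared gp130 chain joins, read 6.29, 6.58 and 6.06 in EGFP-positive arrays, against 7.60, 7.56 and 7.97 in EGFP-negative arrays (-1.40, SE 0.17, adjusted p = 0.00155). Its second probe set was -0.48 and did not pass (adjusted p = 0.375 over probe sets), and the mean of both was -0.94. Il27ra, the receptor for interleukin-27, had the largest rise of any receptor. It read 10.16, 10.30 and 9.99 in EGFP-positive arrays, against 9.13, 8.89 and 9.01 in EGFP-negative arrays (1.14, SE 0.12, 2.21-fold, adjusted p = 0.000697). Il12rb1 and Il12rb2, the chains of the interleukin-12 receptor, were 7.63 ± 0.31 and 6.06 ± 0.19 in EGFP-positive arrays, against 7.19 ± 0.11 and 5.84 ± 0.04 in EGFP-negative arrays. Neither passed (adjusted p = 0.0969 and 0.195). Il12rb1 passed as higher without EGFP-positive replicate 2 (0.61, adjusted p = 0.0142), but not when any other array was left out, as with EGFP-positive replicate 3 (0.31, adjusted p = 0.213) or EGFP-negative replicate 3 (0.39, adjusted p = 0.234).

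**Figure D4:**
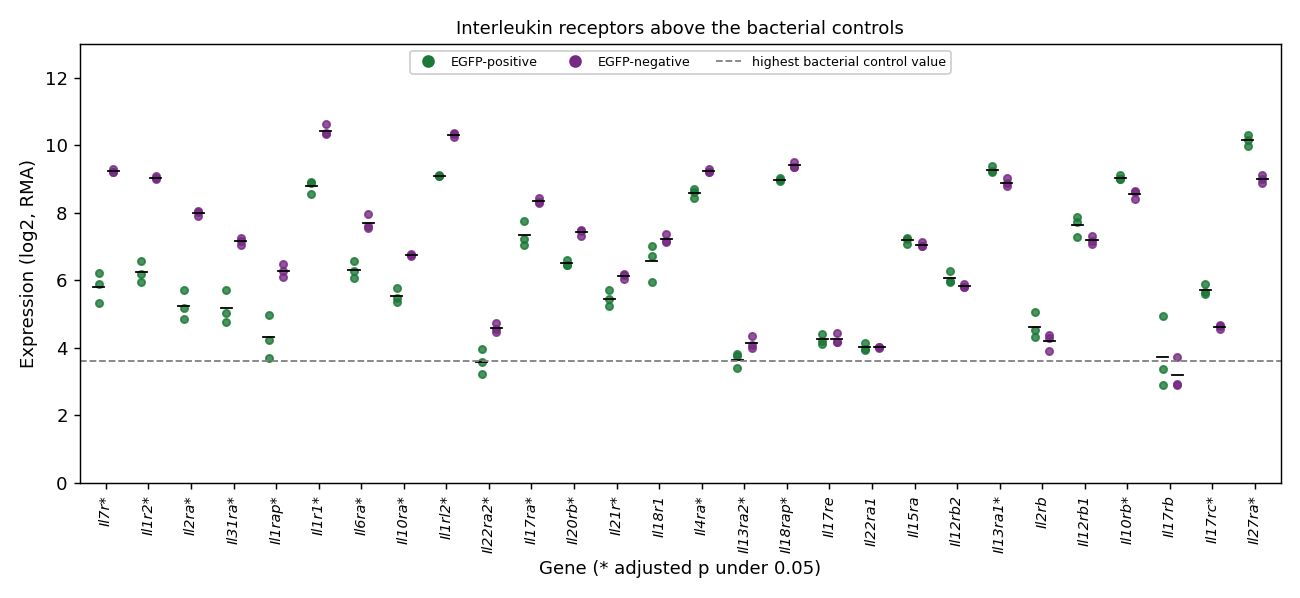
Log2 expression on each array for the 28 receptors above the bacterial controls, ordered by change, EGFP-positive left (green) and EGFP-negative right (purple), with the mean as a black line. The dashed line is the highest bacterial control value, 3.61. The left side of the plot holds receptors whose EGFP-positive arrays lie wholly below their EGFP-negative arrays, from Il7r on, and the right end holds Il17rc and Il27ra.

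Genes that work beside the interleukin receptors were counted by list. Of 11 measured shared chains and partners, 3 fell and 0 rose. The falls included Csf2rb2 (-1.73), a beta chain of the interleukin-3 receptor, and Csf2rb (-1.50), the beta chain shared with interleukin-5 and GM-CSF. Ebi3 (-0.41), a partner subunit in interleukins 27 and 35, fell too. Of 14 measured JAK-STAT and feedback genes, 4 rose and 2 fell. The smallest p among the rises was that of Stat2 (1.59), a factor of interferon signalling, followed by Stat5a (0.44), which acts below interleukin-3, and Stat3 (0.43). Socs3 (-1.04) and Socs1 (-0.35), inhibitors of cytokine signalling, fell. Of 14 measured genes on the route of the interleukin-1 and interleukin-17 receptors, 5 rose and 1 fell. The rises included Irak3 (1.30), a brake on IRAK signalling, Nfkbiz (0.44) and the adaptor gene Myd88 (0.38), and the fall was Mapkapk2 (-0.43). Of 6 measured genes that process interleukin-1 family cytokines, 4 rose and 0 fell: Casp1 (0.54), Casp4 (0.58), the pore-former gene Gsdmd (0.63) and the DNA sensor gene Aim2 (0.47). Nlrp3, the inflammasome sensor, was 7.24 in EGFP-positive and 8.63 in EGFP-negative arrays and did not pass (adjusted p = 0.057). The median changes of the 4 lists were -0.08, 0.03, 0.12 and 0.51, beside 0.02 for all genes. Over all genes, 33.2% passed, 16.0% higher and 17.2% lower, and whether the lists differ from that share was not tested.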

How the data were processed

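Each of the 6 samples was read on 1 Affymetrix array, after amplification from the 3' end per the labels' protocols. The authors deposited log2 values per probe set, made by RMA per the submitters' processing notes; its version and settings are not given in the sources used here. The table held 45101 probe sets, 64 of them controls. GEO's platform annotation gave 1 gene to 34945, several to 932 and none to 9160. A gene was represented by its brightest probe set over the 6 arrays among those annotated to it alone, which gave 18192 genes; 26 of the 68 members had more than 1.

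Groups and replicate numbers came from the sample titles. The test, two-sided, was limma's moderated fit (lmFit and eBayes, limma 3.58.1, R 4.3.3) of EGFP-positive minus EGFP-negative over all genes without covariates, with Benjamini-Hochberg adjustment over all genes and a threshold of 0.05. Values of the dimmer group under 3.61 were raised to 3.61, and the fold is then a lower bound; where both means lay under it, no fold is given. Arrays carry no read depth, and 3 per group limits the precision.

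Members that passed, or lay above the limit, were named with values; of other lists up to 3 rises and 3 falls by smallest p, with a few further list members named after their values were seen. Members and lists were chosen with earlier results of these data known, and the look at neighbouring genes was added after the values were seen. Scripts were tested on simulated data. The alternatives were a replicate block, other scalings, filters, variance priors, array weights, other probe set choices and leaving out each array.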

Additional observations from a re-analysis of the deposited data

How the results depend on the processing

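Across 16 alternative settings, 29 of the 33 members that passed kept their call wherever they were tested, and 0 changed direction. The other 4 were Il34 and Il13ra2, past the threshold in 5 of 14 and 3 of 15 settings, and Il13ra1 and Il10rb, in 11 of 16 and 14 of 16. With the replicate number as a block, 2 receptors rose in place of 4, Il10rb (adjusted p = 0.0502) and Il13ra1 (0.0654) being lost along with Il13ra2 (0.061) and Il34 (0.067). Same-numbered arrays did not deviate together (r from -0.0106 to 0.0117), so the numbers were not taken as pairs. With only the brighter genes tested, 21 members passed, 13 of them lower, among them 5 ligands (2 lower) and 13 receptors (10 lower), since fewer members were tested. Leaving out each array gave 30 to 36 members, 9 to 12 ligands and 18 to 21 receptors. Of members that did not pass, signs were compared only for those above the bacterial limit in both groups. Among these, the sign turned for Il22ra1 with a further quantile normalization (-0.0683) and for Il2rb with the most variable probe set (-0.0696). It also turned for Il17re with arrays shifted to the same median (0.0267). For Il23a it turned with that shift (0.0408) and with array weights (0.0073). It turned for some arrays left out too: Il22ra1 ranged over -0.0581 to 0.0491, Il17re over -0.104 to 0.0693 and Il23a over -0.0298 to 0.0422. The cause was not tested. Signal near the bacterial controls limits 26 members, for which no fold is given, Il34 among them although it passed.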

Other observations

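Interleukin genes were also read by 3 probe sets annotated to several genes, which entered no count above. The probe set shared by Il22 and Iltifb, near-identical copies of the interleukin-22 gene, read 2.25, 2.31 and 2.80 in EGFP-positive arrays, under the bacterial limit, against 4.31, 4.08 and 4.72 in EGFP-negative arrays. The probe set shared by Il4i1 and Il4i1b read 10.31, 10.29 and 10.28 in EGFP-positive arrays, against 9.46, 9.49 and 9.36 in EGFP-negative arrays, while the probe set annotated to Il4i1 alone read 1.71 in both groups. The probe set shared by Il2 and Ntan1 read 7.06 to 7.19 in EGFP-positive and 7.12 to 7.41 in EGFP-negative arrays, while that of Il2 alone averaged 3.41 in EGFP-positive and 3.24 in EGFP-negative arrays.

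Of 4 measured megakaryocyte markers, 2 rose, Ppbp (3.00) and Itga2b (0.97), and Pf4 (0.23) and Gp9 (0.24) did not pass. Of 6 dendritic markers, 3 fell, Itgax (-2.69), Batf3 (-1.10) and Flt3 (-0.82), and 0 rose. Of 5 markers of cultured progenitors, 3 fell, Cd34 (-2.75), Kit (-0.98) and Myb (-0.82), and 1 rose, Spi1 (0.51). These counts stand beside 16.0% of all genes higher and 17.2% lower.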
